A study of Mus musculus with 3 samples.

Results

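Among cortical cells sorted for a history of somatostatin (Sst) expression, a small set carried genes known from other inhibitory lineages. Its cells held no message of Lhx6, the homeobox factor that marks interneurons from the medial ganglionic eminence (MGE), and their lineage was not tested. These cells, called Meis2-type cells here, were taken from all 3 single-cell libraries by a fixed gene rule. A cell was a member when it held unique molecular identifiers (UMIs, one per captured RNA molecule) of at least 2 of Meis2, Sp8, Pbx3 and Pax6 and 0 UMIs of Lhx6, Nos1, Neurod6 and Neurod2. Only cells with more than 700 detected genes and less than 10% of their UMIs from mitochondrial genes were used. Of 9433 such cells, 65 were members, a share of 0.689% (95% Clopper-Pearson interval 0.532 to 0.877%). The rule found 44 of 3952 cells at embryonic day (E) 16.5, 20 of 2501 cells at postnatal day (P) 1 and 1 of 2980 cells at P5.

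Meis2 and Pbx3 are TALE homeobox transcription factors, Sp8 is a zinc-finger factor and Pax6 a paired-box factor. Together they are known from GABAergic neurons born in the lateral ganglionic eminence (LGE), whose dorsal part gives rise to olfactory bulb interneurons and whose ventral part gives rise to the projection neurons of the striatum. Cortical SST interneurons arise instead in the MGE under Nkx2-1 and keep Lhx6 after they leave it. GABAergic cells with Meis2 are also known from the white matter under the cortex.

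The study profiled SST lineage cells of the developing mouse neocortex. All 3 libraries came from animals with one Sst-Cre allele and the RCE-loxP reporter, in which Cre made under the Sst gene switches on GFP for good, so GFP records past as well as present Sst expression. Living (DAPI-negative) GFP+ cells were sorted from neocortex, pooled over 6 animals for E16.5 and over 3 for each postnatal age, and no other genotype or treatment was profiled. Myelin was removed with Percoll at P1 and P5 and not at E16.5, and the P5 tissue had additional enzymes during dissociation, so stage and preparation cannot be told apart. Each stage was a single library: there was no replicate check, cells of one library are not replicates, and every interval covers counting error only.

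The E16.5 matrix had 4478 cells with 25638779 UMIs in all, that of P1 4440 cells with 15654107 and that of P5 3406 cells with 13429055. The gene and mitochondrial limits kept 88.3%, 56.3% and 87.5% of these cells. Between 1 and 6 cell barcodes were shared by any pair of libraries, and none belonged to a member. Members were set against comparison cells, those with at least 1 Lhx6 UMI and none of the 4 rule genes (3207, 1912 and 2254 cells), and against excitatory-type cells that the sort had also let through (36, 25 and 13 cells), taken as those with UMIs of both Neurod6 and Neurod2 and 0 of Lhx6. Median depth was 6283.5 UMIs in members and 5825 in comparison cells at E16.5, and 2780.5 and 3846 UMIs at P1. Excitatory-type cells were deeper, with medians of 11791.5 and 6227 UMIs at E16.5 and P1. Members' median mitochondrial share was 4.68% and 6.27% at those stages, against 4.06% and 5.99% in comparison cells. At E16.5, 12 of the 44 members lay in the library's top 10% by UMIs, and at P1 none of the 20 did.

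Meis2-type cells made up 1.11% of cells at E16.5, with an interval of 0.810 to 1.49%. Their share was 0.800% at P1, within 0.489 to 1.23%, and the single P5 cell gave 0.0336%, within 0.00085 to 0.187%. The intervals of E16.5 and P1 overlapped, and the interval of P5 lay below both. The GFP gate, the preparation of each library and the depth of its cells can set such shares, and their part was not tested.

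All 4 rule genes chose the members, so their levels are given as a description. At E16.5, Meis2 was read in 42 of 44 members, with a median of 13 UMIs per cell and a highest value of 45, and at P1 in 17 of 20, with a median of 8 and a highest value of 21. Pooled over members, Meis2 stood at 2301 CPM (UMIs scaled to the same total in every group) at E16.5 and 3242 CPM at P1. Excitatory-type cells also held Meis2, at 509 and 497 CPM, so Meis2 by itself did not set the group apart. Pax6 was read in 31 and 14 members, Pbx3 in 28 and 17, and Sp8 in 23 and 8. All 4 genes met in 11 members at E16.5 and in 3 at P1. The next most common sets at E16.5 were Meis2 with Pbx3 alone in 9 cells and Meis2 with Sp8 and Pax6 in 8, whereas at P1 Meis2 with Pbx3 and Pax6 led with 8 cells. In the annotation of the deposited build, GRCm38, Meis2 lies on the minus strand at chr2:115863064-116065839.

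The threshold of the rule lay between cells with 2 and with 1 of its genes. At E16.5, the 19 members with exactly 2 genes had Islr2 at 424 CPM and Satb1 at 8.15 CPM, from 1 UMI, and the 29 otherwise eligible cells with 1 gene had 141 and 199 CPM. At P1 the 7 members with exactly 2 genes held Tshz1 at 1199 CPM, against 40.1 CPM in 26 cells with 1 gene, while Adarb2 stood at 917 and 1204 CPM. Cells just outside the rule therefore carried part of the same genes. Before the genes with 0 UMIs were applied, 83 cells held 2 or more rule genes, of which 6 also held Lhx6 and 12 held Nos1, Neurod6 or Neurod2.

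The inhibitory label was checked on genes the rule did not use. Gad1 or Gad2, which encode the enzymes that make GABA, was read in 40 of 44 members at E16.5 (90.9%, 78.3 to 97.5%) and in 16 of 20 at P1 (80%, 56.3 to 94.3%). Comparison cells had 92.1% and 85.5%, and excitatory-type cells 13.9% and 20%. No member held a UMI of the glutamate transporter genes Slc17a7 and Slc17a6 or of Tbr1, against 80.6% and 76% of excitatory-type cells. This allows up to 8.04% of such cells at E16.5 and 16.8% at P1 to hold a UMI (upper Clopper-Pearson limits). It sets no limit on cells that express the genes. Members had to lack Neurod6 and Neurod2, and excitatory-type cells had to hold both. That choice in part set the contrast, so it is no independent check of the label.

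After each cell was reduced at random to 1000 UMIs, to put the groups at one depth, Gad2 was read in 25% of members, 26.8% of comparison cells and 2.78% of excitatory-type cells at E16.5. At P1 the thinned shares were 30%, 30.6% and 0%.

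The pooled levels of Gad1, Gad2 and Slc32a1 in members lay near those of comparison cells, while the shares of cells with a UMI differed more. Gad2 stood at 381 CPM (exact Poisson interval 313 to 460) in members and 345 CPM in comparison cells at E16.5, and at 477 (309 to 704) and 422 CPM at P1. Slc32a1, the vesicular GABA transporter, had 350 against 333 CPM and 248 against 256 CPM. At P1 its level came from 13 UMIs in 5 of 20 members (25%), against 54.5% of comparison cells with a UMI. Thinned, the Slc32a1 shares were 18.2% of members and 23.2% of comparison cells at E16.5, and 0% and 18.3% at P1. Gad1 was 213 against 316 CPM at E16.5 and 305 against 334 CPM at P1. Its thinned shares were 13.6% of members and 22% of comparison cells at E16.5, and 20% and 24.0% at P1. On the log2 scale used below, with 1 CPM added to both sides, the differences in pooled level lay between -0.57 and 0.17. Of the 12 listed GABAergic genes, 1 was at least 2-fold higher and 4 lower at E16.5, where 10.1% and 15.2% of all genes were, and 2 and 2 at P1, where 13.7% and 38.9% were.

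Other cell types were looked for through their markers. Of 15 excitatory neuron genes, 11 at E16.5 and 12 at P1 had 0 UMIs in members. Of the 6 that reached the minimum used below at E16.5, 3 were at least 2-fold higher than in comparison cells and 2 lower, where 10.1% and 15.2% of all genes were. The higher ones were Nrgn, a calmodulin-binding protein (20 UMIs in 10 cells, log2 ratio 3.56), Tle4, a co-repressor (25 UMIs in 10 cells, 1.81), and Zbtb18, a zinc-finger repressor (7 UMIs, 1.89). At P1, Nrgn and Tle4 had 0 UMIs in members, and of 9 genes only Zbtb18 was higher (3 UMIs, 2.29) and 8 were lower, or 2 with the level of 3 UMIs. Over all P1 genes, 13.7% were higher and 38.9% lower, or 6.95% with that level. The microglial list had 0 UMIs. Of 12 radial glia and astrocyte genes, 8 and 10 had 0 UMIs, among them Fabp7, Hes1, Vim, Aqp4 and Gfap. Slc1a3, the glial glutamate transporter, gave 12 and 8 UMIs (log2 ratios 4.90 and 6.47), and Sox9 gave 8 and 1. Summed over the glial list, members had 80.4 and 172 CPM, comparison cells 12.7 and 18.1 CPM and excitatory-type cells 162 and 40.9 CPM. Summed over the excitatory list, the levels were 213 and 95.4 CPM in members against 3360.1 and 5472 CPM in excitatory-type cells. Single glial genes were thus present while Fabp7, Vim and Gfap were at 0, and the part of glial RNA in the values below was not tested.

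Genes were then compared between members and comparison cells by their log2 ratio of CPM, for genes with at least 10 UMIs in both groups together. At E16.5, 13438 genes met this minimum and 10.1% were at least 2-fold higher and 15.2% at least 2-fold lower in members. At P1, with 12844 genes, the shares were 13.7% and 38.9%. With 44 and 20 members, 1 UMI was worth 3.50 and 19.1 CPM, so many genes of the comparison cells had 0 UMIs in members by counting alone. Where such genes were instead set to the level of 3 UMIs, 6.62% and 6.95% of genes were at least 2-fold lower, and both counts are given below where they differ. With a minimum of 10 UMIs counted in members, or expected there at the comparison level, 6.29% of genes were higher and 4.53% lower at E16.5, and 10.6% and 8.51% at P1. These shares are the background for the lists that follow, and counts are read against them. No test was made, since each stage had 1 library, and 2-fold is a limit of size only. The median log2 ratio over all these genes was -0.08 and -0.35.

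Genes outside the lists were taken by a rule of size over both stages. The 15 higher genes were Islr2, Cxcl14, Arpp21, Ptprk, Nectin3, Sorcs3, Wnt5a, Sez6, Hs3st4, Lrp1b, Camk4, Gpr26, Cbln2, Sphkap and Gse1. Because size chose them, their values are a description.

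Islr2 encodes a membrane protein with leucine-rich repeats that acts in axon guidance, and lies at chr9:58196297-58204319 on the minus strand. It was read in 37 of 44 members at E16.5, with a median of 2 and a highest value of 9 UMIs per cell, and in 13 of 20 at P1, with a median of 1.5 and a highest value of 5. Pooled, it stood at 423 CPM against 1.16 CPM in comparison cells at E16.5, a 365-fold difference (228 to 611), and at 706 against 6.80 CPM at P1, a 104-fold difference (66.6 to 160). Only 0.499% of comparison cells held it at E16.5. Excitatory-type cells held Islr2 too, at 404 and 286 CPM, so the gene set members apart from SST lineage cells and not from all cortical neurons.

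Cxcl14 encodes a secreted chemokine. It had 27 UMIs in 13 members at E16.5 and 34 UMIs in 11 members at P1, or 94.4 and 648 CPM, against 0.44 and 6.80 CPM in comparison cells. The differences were 214-fold (94.4 to 544) and 95.4-fold (60.4 to 149), and excitatory-type cells held 0 UMIs at both stages. Arpp21, a phosphoprotein regulated by cyclic AMP, stood at 280 and 706 CPM in members and at 18.3 and 25.4 CPM in comparison cells, with 401 and 1216 CPM in excitatory-type cells.

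The other 12 genes were each at least 2-fold higher at both stages. The receptor phosphatase gene Ptprk had log2 ratios of 3.68 at E16.5 and 4.21 at P1, and the adhesion gene Nectin3 had 3.24 and 3.16. Wnt5a, a ligand of non-canonical Wnt signalling, was at 2.63 and 5.03. Hs3st4, a heparan sulfate sulfotransferase gene, stood at 2.42 and 4.53, and Cbln2, which encodes a secreted synapse organiser, at 2.14 and 4.46, although at E16.5 only 4 members held Cbln2 and its lower log2 ratio was -3.44 without the deepest 10% of cells. Sorcs3, Sez6, Lrp1b, Camk4, Gpr26, Sphkap and Gse1 had log2 ratios between 1.90 and 3.84 at both stages. Several of these genes were also made by excitatory-type cells, with Sez6 at 305 and 251 CPM there and Sphkap at 137 and 93.5 CPM, while Cbln2 was at 2.75 and 0 CPM. The defining genes of excitatory neurons, Slc17a7, Slc17a6 and Tbr1, were at 0 in members.

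The 10 lower genes were Thbs1, Sstr1, Cntnap3, Tiparp, Cntnap4, Tmem132c, Dgkg, Calb1, Sox1 and Sh3rf3. Thbs1, a thrombospondin, and Sstr1, a somatostatin receptor, had 0 UMIs in all members at both stages, which put them at least 7.73-fold and 4.82-fold lower at E16.5. Calb1, the calcium-binding protein of many SST interneurons, had 6 UMIs in members at E16.5 and 1 at P1, at 21.0 and 19.1 CPM, against 341 and 147 CPM in comparison cells. Dgkg, a diacylglycerol kinase, had 3 and 1 UMIs, against 194 and 190.4 CPM in comparison cells. The others had 0 to 4 UMIs at each stage. At P1, where 3 UMIs equal 57.2 CPM, 0 UMIs of Thbs1, Cntnap3, Tiparp or Cntnap4 did not separate the groups by 2-fold.

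**Figure D1:**
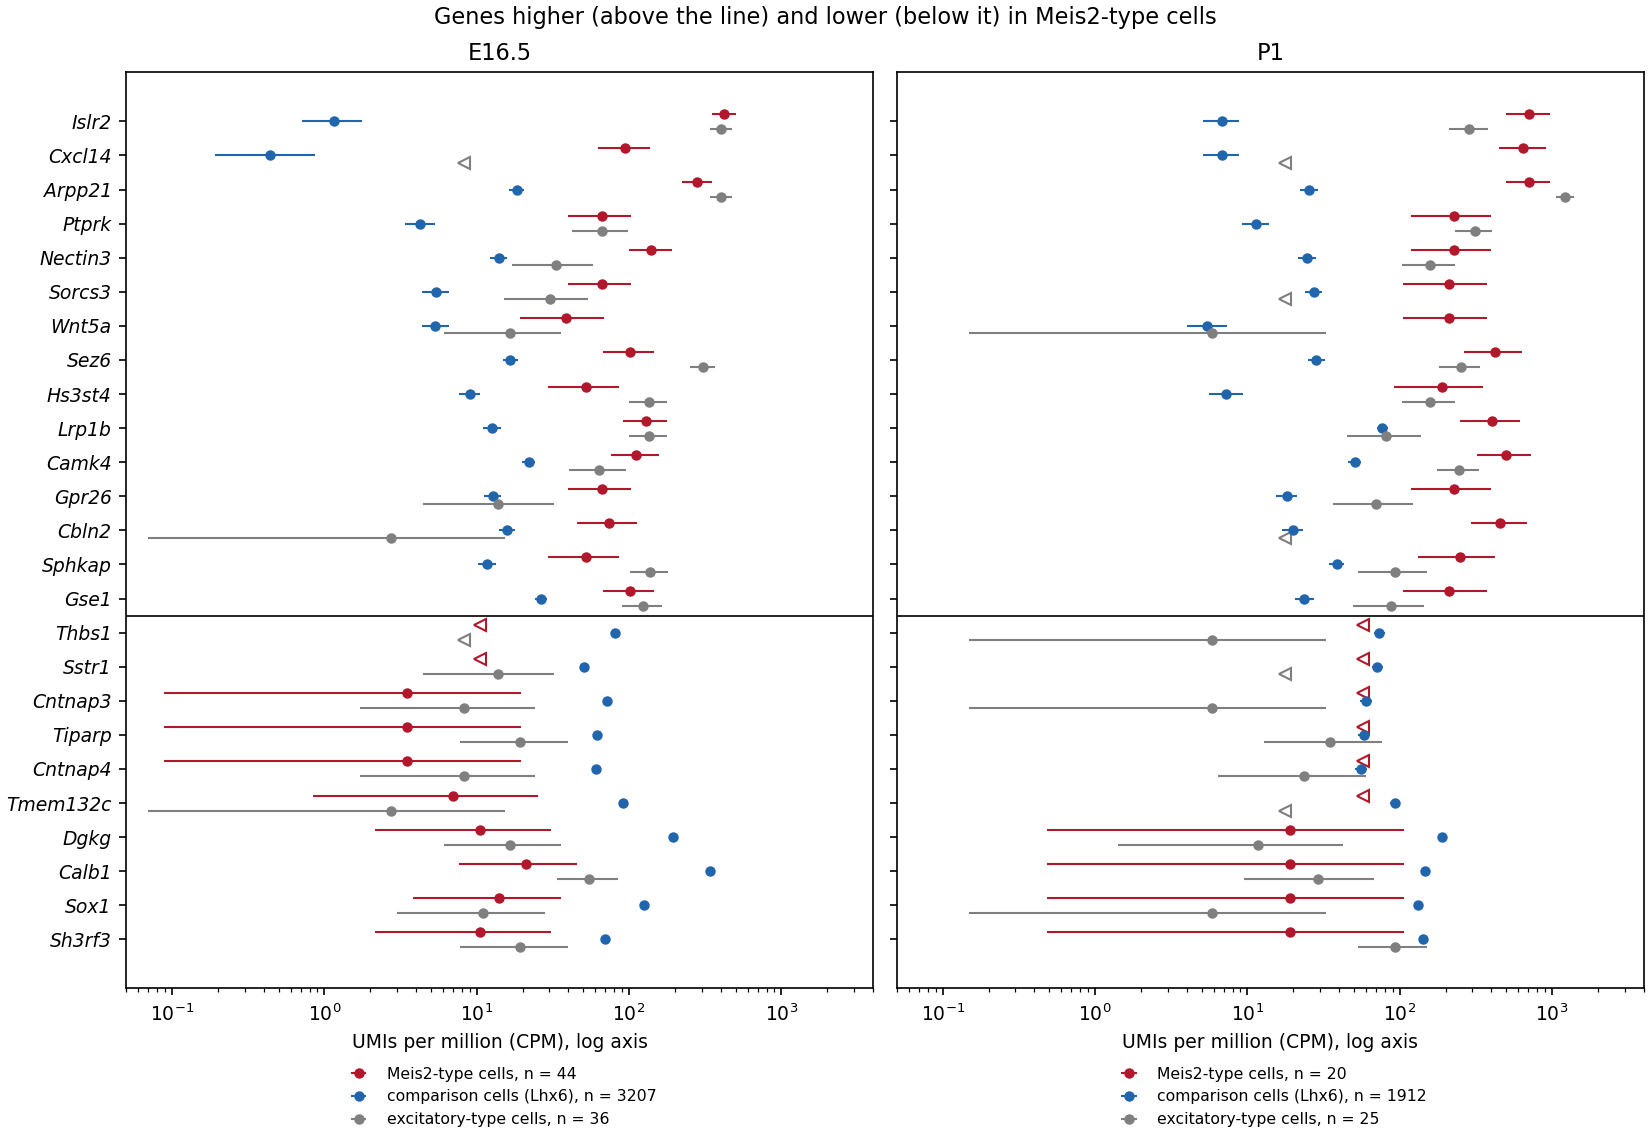
Level of the 15 higher and 10 lower genes, in CPM on a log axis with exact Poisson intervals, in Meis2-type cells (red), comparison cells with Lhx6 (blue) and excitatory-type cells (grey) at E16.5 and P1. Open triangles mark 0 UMIs and are drawn at the level of 3 UMIs; Islr2 stood at 423 and 706 CPM in Meis2-type cells, with excitatory-type cells close by and comparison cells at 1.16 and 6.80 CPM.

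The MGE and SST gene list was low in Meis2-type cells at both stages. All 19 of its genes reached the minimum, and 16 were at least 2-fold lower at E16.5 and 16 at P1, against 15.2% and 38.9% of all genes. With the level of 3 UMIs in place of 0, 13 genes were lower at each stage, against 6.62% and 6.95% of all genes, and 10 of them were lower at both. The list's median log2 ratio was -3.11 and -2.32, or -2.09 and -1.92 with the level of 3 UMIs. Tac1 was the 1 gene of the list that was higher at E16.5, with a log2 ratio of 4.92 from 4 members.

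Several of the lower genes encode transcription factors of MGE interneurons. Satb1, which acts in SST interneuron maturation, was at 17.5 CPM in members and 684 CPM in comparison cells at E16.5 and at 114 and 675 CPM at P1. Maf, a bZIP factor of migrating MGE cells, had log2 ratios of -4.08 at E16.5 and -3.34 at P1. Sox6 was lower by a log2 ratio of -1.64 at E16.5 and -4.39 at P1. Nkx2-1 and Lhx8, factors of the MGE itself, had 0 UMIs in members at both stages. With 0 read as 3 UMIs, neither was 2-fold lower at either stage, so their absence did not separate the groups. The synaptic gene Elfn1 had log2 ratios of -4.67 and -2.21, and Nxph1, a neurexin ligand, -3.68 and -1.62.

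Npy, a peptide of many SST cells, was at 178 CPM in members and 2272 CPM in comparison cells at E16.5, and at 172 and 6466 CPM at P1. Of members, 20.5% and 25% held an Npy UMI. In excitatory-type cells, which should lack Npy and were deeper, the shares were 27.8% and 60%. After thinning, the shares were 4.55% and 15% in members and 11.1% and 28% in excitatory-type cells. The share of members with Npy thus did not rise above that background. A single E16.5 member, from those with Six3, held 42 of the 51 Npy UMIs, so the pooled 178 CPM rested largely on that cell.

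As a pooled level, Sst was within 2-fold of comparison cells at both stages, but at P1 only through a single member. At E16.5 members held 876 Sst UMIs, a level of 3063 CPM (2864 to 3273) against 3513 CPM in comparison cells, with a log2 ratio of -0.20. A median member had 4 Sst UMIs and the highest 167, and 30 of 44 (68.2%, 52.4 to 81.4%) held at least 1. Comparison cells had 77.5% and excitatory-type cells 38.9% with a UMI, the latter at 294 CPM. Thinned to 1000 UMIs, the shares were 52.3% in members, 56.9% in comparison cells and 13.9% in excitatory-type cells. Many members thus carried Sst above the background of the library at E16.5.

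Fewer P1 members carried it. They held 74 Sst UMIs, or 1411 CPM against 2596 CPM in comparison cells (log2 ratio -0.88), and 11 of 20 (55%, 31.5 to 76.9%) held at least 1, against 75.2% of comparison cells and 16% of excitatory-type cells. A single member gave 43 of the 74 UMIs, and without it the level was 649 CPM. The median of per-cell levels was 360 CPM in P1 members and 1090 CPM in comparison cells. Without the highest member at E16.5 the level there was 2640 CPM. After thinning, 25% of P1 members (8.66 to 49.1%), 57.1% of comparison cells and 0% of excitatory-type cells held Sst. Excitatory-type cells stood at 29.2 CPM, so P1 members lay between the other groups. The member at P5 held 0 Sst UMIs.

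**Figure D2:**
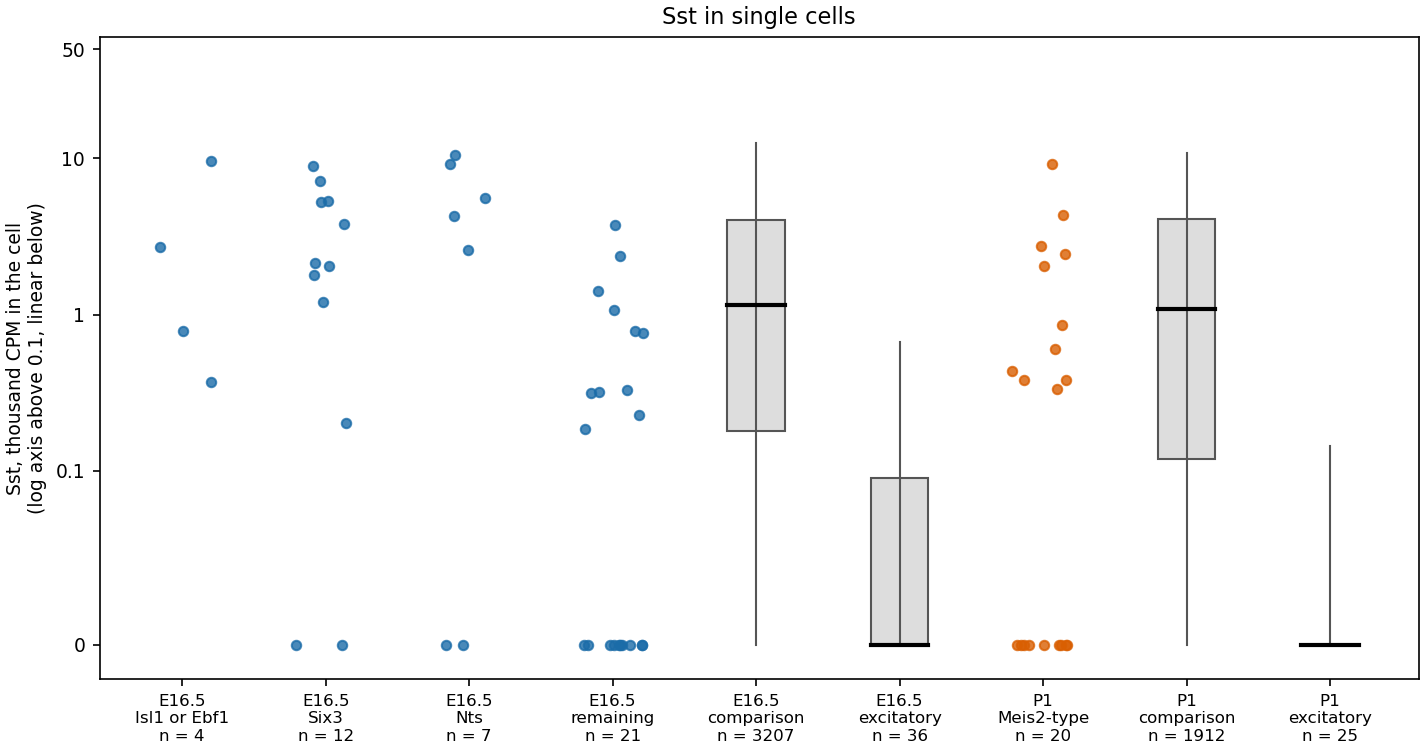
Sst level of single cells at E16.5 and P1, in units of 1000 CPM, on an axis that is logarithmic above 0.1 and linear below. Points are Meis2-type cells (E16.5 in blue, split into the gene sets described in the text, and P1 in orange), and boxes give the 25th to 75th percentile with the median and whiskers from the 5th to the 95th percentile of comparison and excitatory-type cells; 30 of 44 and 11 of 20 members lie above 0, within the range of the comparison cells.

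Genes known from the dorsal LGE and olfactory bulb were more often high, above all at P1. At E16.5, 11 of the 15 listed genes reached the minimum, of which 5 were at least 2-fold higher and 3 lower (2 with the level of 3 UMIs). The shares of all E16.5 genes were 10.1% and 15.2% (6.62% with that level). At P1, 10 genes reached it, 8 were higher and none lower, against 13.7% higher among all genes. The median log2 ratio was 0.70 and 2.24. With more than 1000 genes and less than 5% mitochondrial UMIs asked of each cell, 3 P1 members were left and the P1 median was -4.73. The 5 genes higher at both stages were Tshz1, Foxp2, Foxp4, Synpr and Zic1. Tshz1, Foxp2 and Zic1 were read largely in different members, as described below. With members held to 3 of the rule genes, the E16.5 median was -0.14 and the lower log2 ratio of Synpr was 0.28.

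Tshz1, a zinc-finger factor that olfactory bulb interneurons use in migration, was read in 20 of 44 members at E16.5 and 13 of 20 at P1. Its level was 213 CPM (163 to 274) against 37.5 CPM in comparison cells at E16.5, a 5.69-fold difference (4.30 to 7.40), and 801 CPM (577 to 1083) against 48.7 CPM at P1, a 16.5-fold difference (11.7 to 22.7). Comparison cells held it in 14.5% and 14.9% of cells, and excitatory-type cells in 25% and 0%. Thinned to 1000 UMIs, 20.5% of members and 3.16% of comparison cells held Tshz1 at E16.5, and 45% and 4.87% at P1.

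The forkhead gene Foxp2 had 11 UMIs in 6 members and 17 UMIs in 5 members, at 11.4-fold (5.42 to 21.9) and 111-fold (56.1 to 216) the comparison level. Foxp4 had log2 ratios of 1.52 and 1.30, and Synpr, a synaptic vesicle protein, of 2.31 and 2.20. Zic1, a zinc-finger factor of bulb interneurons, was held by 3 members at E16.5 and 2 at P1, with 19 and 10 UMIs. Its reads thus came from few cells, although comparison cells had only 0.28 and 0.49 CPM, and without the deepest 10% of cells its lower log2 ratio was -0.44.

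Adarb2, an RNA-editing enzyme relative that marks interneurons from the caudal ganglionic eminence (CGE), was nearly absent from comparison cells. At E16.5, 20 of 44 members held 64 UMIs, a level of 224 CPM (172 to 286) against 2.71 CPM in comparison cells, an 82.7-fold difference (56.1 to 122). At P1, 14 of 20 members held 49 UMIs, a level of 935 CPM (691 to 1236) against 1.70 CPM. Excitatory-type cells had 0 UMIs at both stages. The gene lies on the plus strand at chr13:8202866-8768747.

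Most of the CGE list did not differ in the same way. Among 11 genes above the minimum at each stage, 2 were higher at each stage, and 3 at E16.5 and 4 at P1 were lower, or 2 and 0 with the level of 3 UMIs. For all genes, the higher shares were 10.1% and 13.7% and the lower ones 15.2% and 38.9%, or 6.62% and 6.95% with that level. Vip, Sncg and Lamp5 had 0 UMIs in members. Prox1, the homeobox gene of CGE interneurons, had 1 UMI at E16.5 and 0 at P1. The nuclear receptor gene Nr2f2 was at 273 against 149 CPM at E16.5 and 153 against 142 CPM at P1.

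Striatal projection neuron genes were high at E16.5 and nearly absent at P1. At E16.5, 12 of 15 genes reached the minimum and 10 were at least 2-fold higher and none lower, with a median log2 ratio of 3.51. At P1, 8 reached it, 1 was higher and 7 were lower, or 2 with the level of 3 UMIs, which moved the median from -3.81 to 0. Of all genes, 10.1% were higher and 15.2% lower at E16.5. The P1 shares were 13.7% and 38.9%, or 6.95% lower with that level. The list summed to 2336 CPM in members and 585 CPM in comparison cells at E16.5, and to 114 and 618 CPM at P1, and 12 of the 15 genes had 0 UMIs in P1 members.

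Six3, a homeobox factor of striatal neurons with D2 receptors, had 148 UMIs in 12 members at E16.5. Isl1, a LIM-homeobox factor of striatal neurons with D1 receptors, had 30 UMIs in 4 members, and Ebf1 had 41 UMIs in the same 4. Foxp1 was at 458 against 50.3 CPM, a 9.10-fold difference (7.52 to 10.9). Adora2a, the A2a adenosine receptor, had 17 UMIs in 5 members and Ppp1r1b, the dopamine-regulated phosphoprotein, 13 UMIs in 6. None of Six3, Isl1, Ebf1, Adora2a or Ppp1r1b had a UMI in the 20 P1 members. At a median of 2780.5 UMIs per cell, 0 UMIs does not show that a gene was not expressed. The loss of these genes between stages was not tested, since stage and library cannot be told apart.

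**Figure D3:**
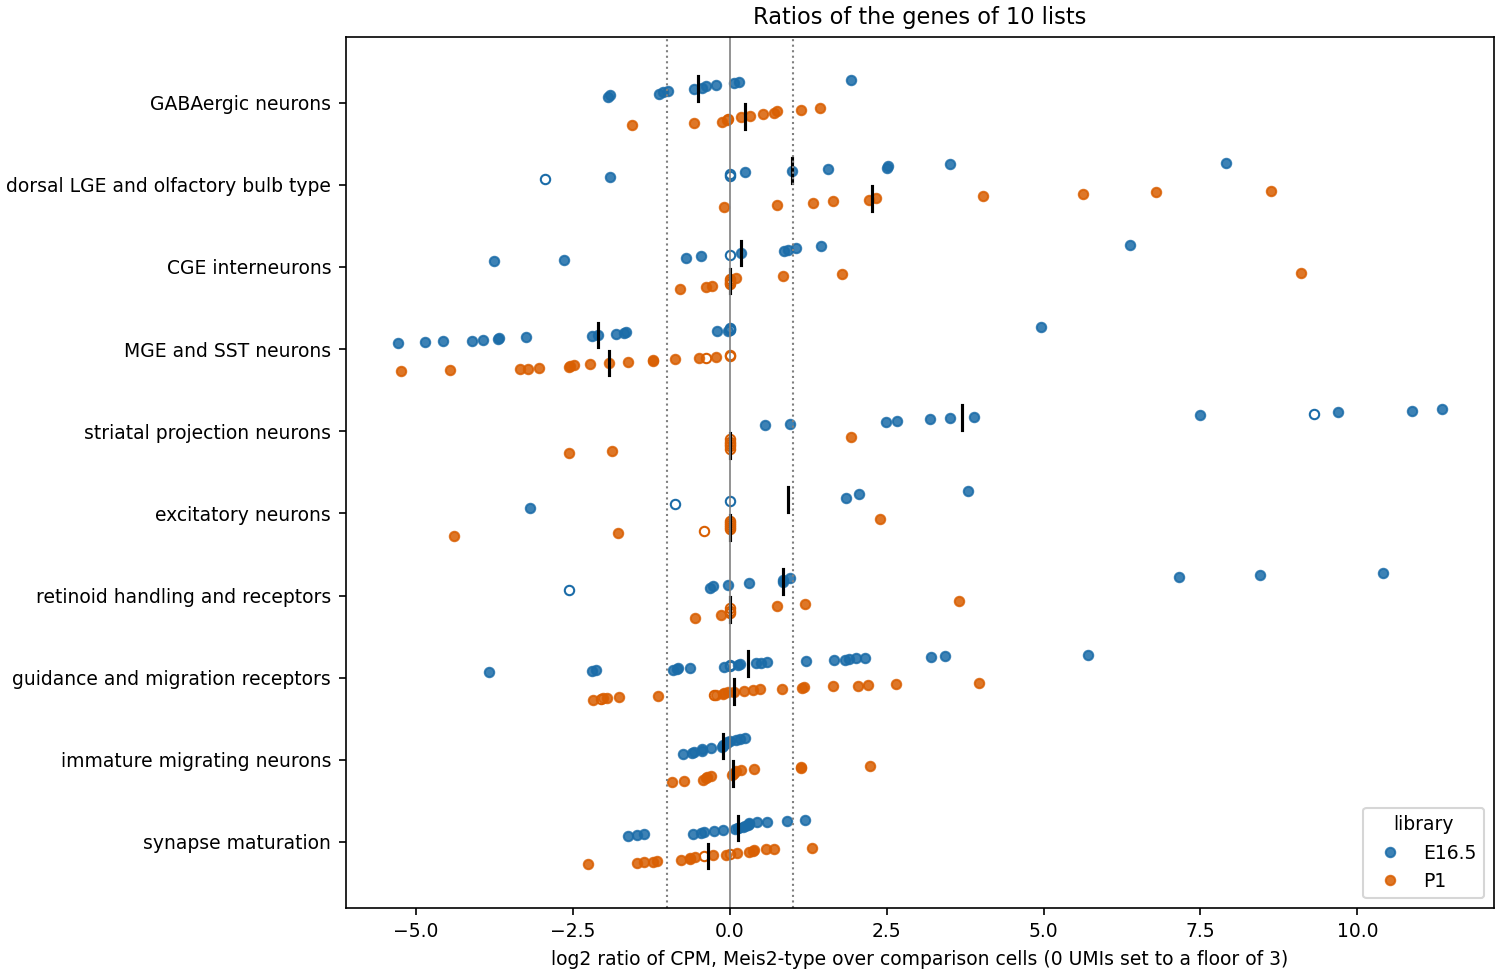
Log2 ratios of Meis2-type over comparison cells for single genes of 10 lists at E16.5 and P1, with 0 UMIs set to the level of 3 UMIs, open points being genes with 0 UMIs in a group (overlapping where several lie at 0) and genes at or under that level in both groups lying at 0. Black bars are list medians and dotted lines mark 2-fold; MGE and SST genes lie low at both stages, while striatal genes lie high at E16.5 and mostly at 0 at P1.

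The E16.5 members were uneven, and sets of cells defined by single genes after their values were seen are described next, with no test. Of the 44 cells, 4 held Isl1 or Ebf1, 12 held Six3, 7 others held Nts and 21 held none of these. No cell held Six3 together with Isl1 or Ebf1.

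The 4 cells with Isl1 held both Isl1 and Ebf1, with 3 to 10 and 3 to 15 UMIs per cell. They carried all 242 UMIs of Tac1, the substance P gene, at 10 to 110 UMIs per cell, and 33 of 45 UMIs of Crabp1, a retinoic acid-binding protein gene. All 4 held Pbx3 and Sst, with 29 and 222 UMIs, and none held Sp8 or Pax6. Their depth was 12127 to 19971 UMIs, all above 10493 UMIs, where the top 10% of the library began. They were the only 4 of 3952 cells of the library with an Isl1 UMI. On the minus strand of chr13, Isl1 spans chr13:116298281-116309689.

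Members with Six3 split by Foxp1. In 4 of the 12 cells Foxp1 had 11 to 29 UMIs, and each of these held 3 to 7 UMIs of Adora2a and none of Cyp26b1 or Nr2f2. Among the other 8, Foxp1 had at most 4 UMIs, Adora2a had none, Cyp26b1, an enzyme that degrades retinoic acid, had 72 UMIs in 7 cells and Nr2f2 had 58 UMIs in 6. The 12 cells held 1 to 62 Six3 UMIs each, a single cell giving 62 of the 148, and 0 UMIs of Adarb2. Sst was read in 10 of the 12 at 3311 CPM. Six3, on the plus strand at chr17:85613608-85629302, was read in 23 cells of the library, of which 12 were members.

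The 7 cells with Nts, the neurotensin gene, held 99 of the 105 Nts UMIs, all 19 UMIs of Zic1 and 30 of the 36 UMIs of Sox6. Pax6 was present in all 7, and Pbx3 gave 4 of 116 UMIs. Sst was highest in this set, at 5966 CPM (5335 to 6651) in 5 of the 7 cells. Of 15 cells with Nts in the library, 8 were members.

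The remaining 21 cells held most Adarb2, with 55 of 64 UMIs in 15 cells, and most Tshz1, with 42 of 61 UMIs in 12 cells. Pbx3 was read in 19 of these cells, and Foxp2 and Zic1 had 0 UMIs in them. Sst was lowest in this set, at 546 CPM (406 to 717), with 51 UMIs in 11 cells. Slc1a3 gave 11 of its 12 UMIs here. The Sst level of E16.5 members thus rested on the other 3 sets, this one giving 51 of 876 UMIs.

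At E16.5, members were 15 of the 22 cells with Cyp26b1 and held 94.9% of its UMIs, while 7 other cells held it too. Members were also 37 of the 95 cells with Islr2 and 20 of the 53 with Adarb2, but only 20 of the 585 with Tshz1. At P1, Cyp26b1 and Nts had 0 UMIs in members and were read in 10 and 17 other cells.

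**Figure D4:**
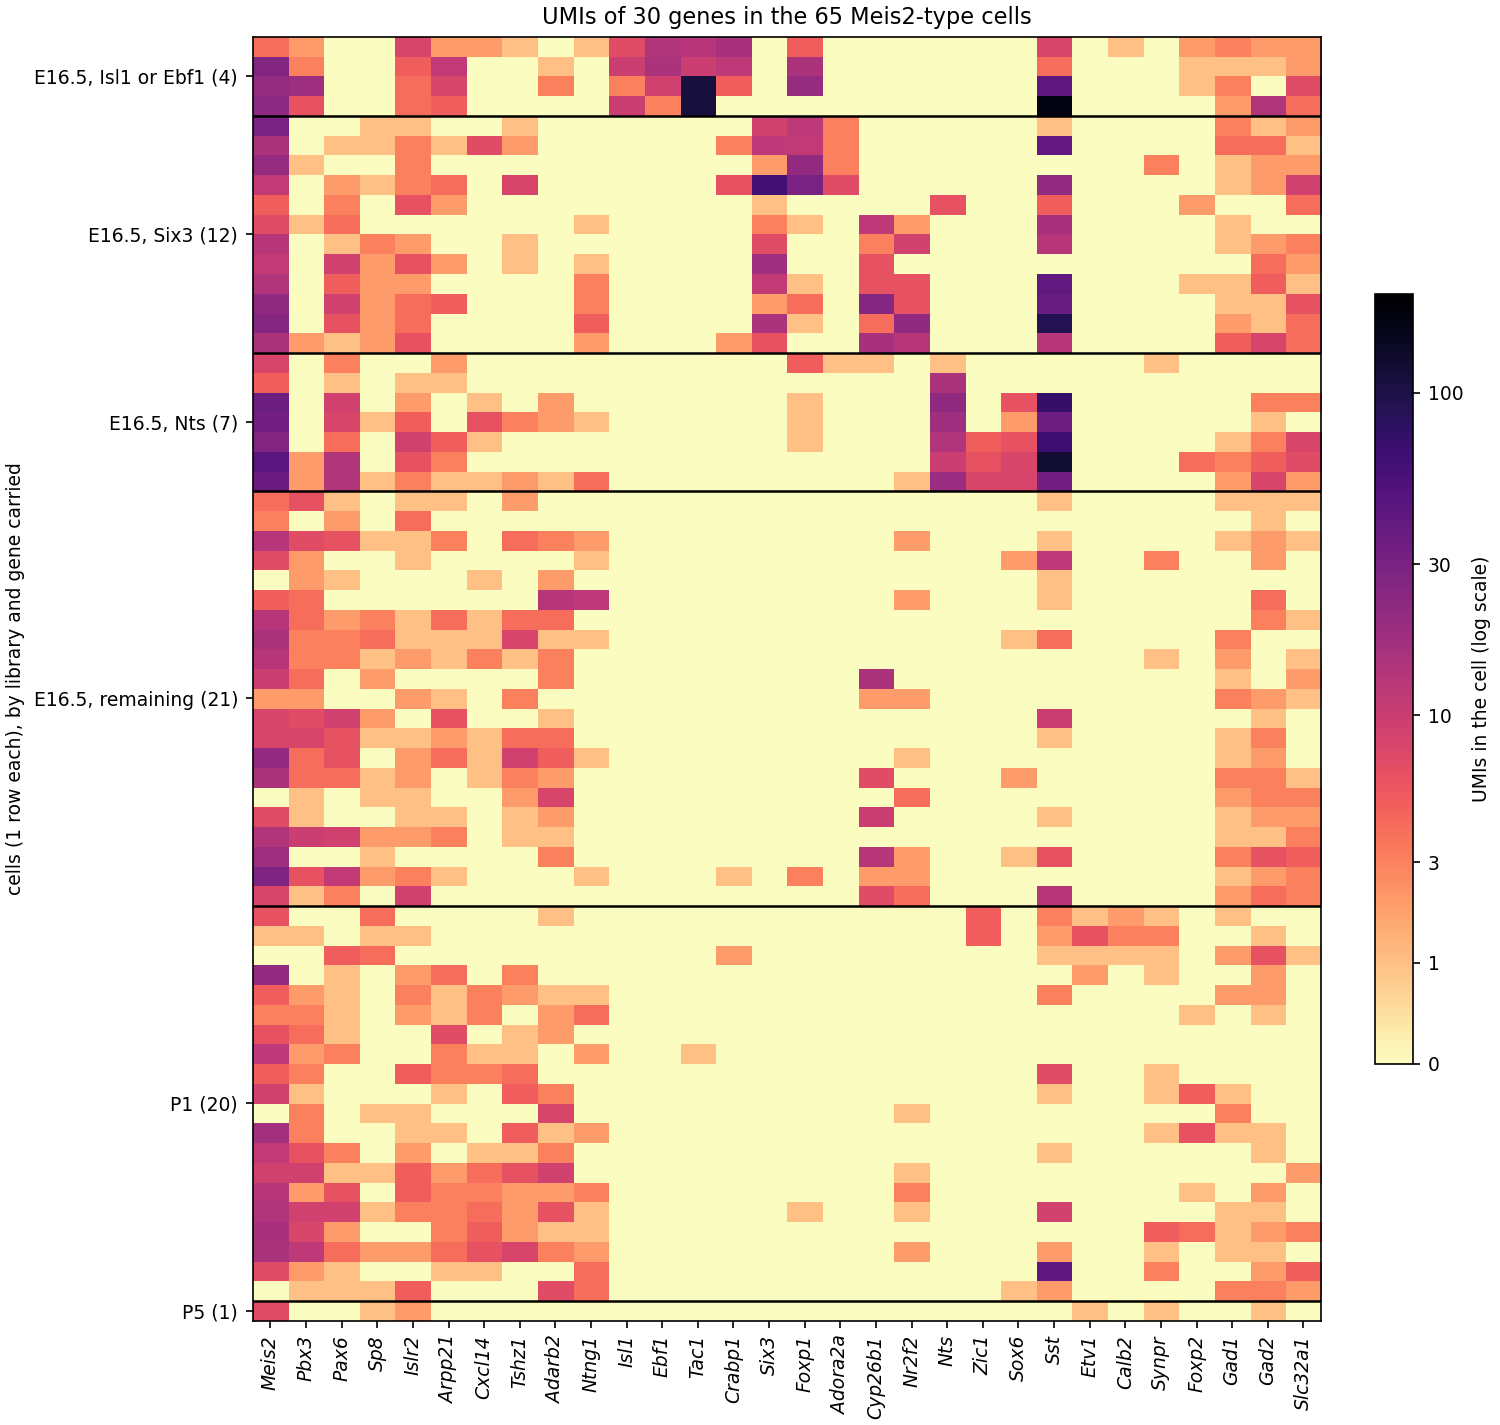
UMIs of 30 genes (columns) in each of the 65 Meis2-type cells, as a colour scale. Cells are grouped into the E16.5 sets with Isl1 and Ebf1 (4), Six3 (12, with those of at least 10 Foxp1 UMIs on top), Nts (7) and the remaining 21, then P1 (20, with the Etv1 cells on top) and P5 (1); the Tac1 reads sit in the first set and the Adarb2 reads mostly in the remaining E16.5 cells and at P1.

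At P1, Etv1, an ETS factor of bulb interneurons, was held by 4 of the 20 members, with 10 UMIs. These 4 cells, again described after their values were seen, held all 10 Zic1 UMIs, all 6 UMIs of Calb2, which encodes calretinin, 9 of 15 Sp8 UMIs and 27 of 53 UMIs of Zeb2. Synpr was read in all 4. They held 1 of 71 Pbx3 UMIs and 1 of 49 Adarb2 UMIs, and none of Cxcl14, Cbln2, Foxp2, Ntng1 or Wnt5a. The other 16 cells all held Pbx3, and held Tshz1 in 12, Adarb2 in 13, Cxcl14 in 11 and Cbln2 in 11. The pooled P1 levels of Cxcl14, Cbln2 and Adarb2 therefore came from this larger set.

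The single P5 member had 1459 UMIs and 917 genes. It held 7 UMIs of Meis2, 1 of Sp8, 2 of Islr2, 8 of Dlx6os1, the non-coding RNA of the Dlx locus, and 1 each of Gad2, Etv1 and Synpr. One UMI of this cell was worth 833 CPM, so no level is given for P5.

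Relatives of the rule genes were read as 3 further lists. Their counts stand beside 10.1% and 13.7% of all genes higher at E16.5 and P1. The lower shares were 15.2% and 38.9%, or 6.62% and 6.95% with the level of 3 UMIs. Of 8 other TALE homeobox genes above the minimum at E16.5, 1 was higher and 1 lower, and of 7 at P1, 4 were higher and none lower. Meis1 was higher at both stages (8 UMIs and 1 UMI, log2 ratios 3.54 and 2.96). Of 11 SP and KLF genes, 1 was higher at each stage and 1 and 3 were lower, or 1 and 1 with the level of 3 UMIs. Klf5 was the one gene of this list lower at both stages, with 1 UMI at each and log2 ratios of -3.89 and -3.32. Sp9, the closest relative of Sp8, was at 147 against 191 CPM and 191 against 153 CPM. Among genes of the Pax and Eya families, Six3 and its relatives, 4 of 7 were higher and 2 lower (1 with the level of 3 UMIs) at E16.5, with 148 of the list's 168 UMIs from Six3, and at P1 the list had 2 UMIs in all.

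Retinoid genes were high at E16.5 through 3 genes of 11, where 10.1% of all genes were at least 2-fold higher. Cyp26b1 was at 451 against 0.33 CPM, Crabp1 at 157 against 1.10 CPM and Rxrg, a retinoid X receptor, at 76.9 against 0.22 CPM. Rara, a retinoic acid receptor, had 0 UMIs in members against 62.1 CPM. Of Cyp26b1, Crabp1 and Rxrg, only Crabp1 had UMIs at P1, 2 in 1 cell.

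Neuropeptide genes split by cell set. At E16.5, 4 of 14 were higher, Nts, Tac1, Penk and Pdyn, and 7 were lower, or 5 with the level of 3 UMIs. Penk, the enkephalin gene, had 20 UMIs in 4 members, and Pdyn 2 UMIs in 1. At P1 none of 13 was higher and 11 were lower, or 5 with the level of 3 UMIs. The background was 10.1% of all genes higher and 15.2% lower at E16.5 (6.62% with that level). It was 13.7% and 38.9% at P1 (6.95% with that level). Cort was low at both stages, with log2 ratios of -4.22 and -1.22.

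Guidance and migration receptors included 9 higher genes of 24 at E16.5 and 7 of 23 at P1, while 4 and 7 were lower, or 3 and 6 with the level of 3 UMIs. By comparison, 10.1% and 13.7% of all genes were higher and 15.2% and 38.9% lower, or 6.62% and 6.95% with that level. Robo2, the Slit receptor, was at 580.5 against 155 CPM at E16.5, a 3.74-fold difference (3.18 to 4.37), and at 1029.96 against 249 CPM at P1, a 4.13-fold difference (3.09 to 5.41), and was read in 40 of 44 and 16 of 20 members. Nrp2, a semaphorin co-receptor, was 3.57-fold (2.57 to 4.84) and 6.23-fold (2.95 to 11.7) higher. Ntng1, a netrin-G adhesion protein, was 4.43-fold (3.12 to 6.14) and 15.7-fold (9.87 to 23.9) higher. Nrp1 and Sema3c were the other 2 genes higher at both stages, with only 2 and 1 UMIs at P1. Ephb1 was 52.4-fold higher (35.0 to 78.1) at E16.5, with 48 UMIs in 20 members, and had 1 UMI at P1. Ackr3, the scavenging receptor for Cxcl12 in migrating interneurons, was at 10.5 against 150 CPM at E16.5 and had 1 UMI at P1.

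Genes of immature neurons and of synapses mostly lay within 2-fold of the comparison cells. Of 15 immature neuron genes, none was past 2-fold at E16.5 (median log2 ratio -0.11), and at P1 Sox4, Igfbpl1 and Dlx6os1 were higher and none lower (median 0.06). Igfbpl1 was at 458 against 97.2 CPM at P1. Of 20 synaptic genes, 1 was higher and 3 lower at E16.5, and 1 higher and 7 lower at P1, or 5 lower with the level of 3 UMIs. For both lists the background was 10.1% of all genes higher and 15.2% lower at E16.5. At P1 it was 13.7% and 38.9%, or 6.95% lower with that level. Gria1, an AMPA receptor subunit, was at 210 against 649 CPM at E16.5, and Gphn, the scaffold of inhibitory synapses, at 248 against 100 CPM at P1.

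GABA-A receptor subunits were higher for 4 of 11 genes at E16.5, Gabra4, Gabra5, Gabrb1 and Gabrg1, and lower for none. At P1 none of 12 was higher and 7 were lower, or 2 with the level of 3 UMIs, and 6 had 0 UMIs. Across all genes, 10.1% were higher and 15.2% lower at E16.5. At P1, 13.7% were higher and 38.9% lower, or 6.95% with that level. Gabra2 was at 294 against 157 CPM at E16.5 and at 38.1 against 182 CPM at P1.

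Of 12 endoplasmic reticulum stress genes, none was higher at either stage and 2 and 1 were lower, where 15.2% and 38.9% of all genes were. Their median log2 ratios were -0.12 and -0.01. Immediate early genes summed to 1032 CPM in members and 707 CPM in comparison cells at E16.5, and to 725 and 327 CPM at P1. Of 10 such genes above the minimum at E16.5, only Jund was at least 2-fold higher (685 against 295 CPM) and none was lower. At P1, Jun and Btg2 were higher of 8 genes and 5 were lower, or 0 with the level of 3 UMIs. There, 8 of the 11 listed genes had 0 UMIs in members, and the summed level came from 38 UMIs. Of all genes, 10.1% were higher and 15.2% lower at E16.5. The P1 shares were 13.7% and 38.9%, or 6.95% lower with that level. Genes of dividing cells summed to 76.9 against 29.4 CPM at E16.5 and 19.1 against 27.8 CPM at P1. Cenpf, a centromere protein of dividing cells, had 12 UMIs in a single E16.5 member, and Top2a and Cdk1 had 0 UMIs.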

How the data were processed

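Single cells of 3 mouse libraries were analysed from the gene-by-cell matrices that the authors deposited, whose values are whole-number UMI counts, not normalized. The submitters' processing notes name Cell Ranger (3.1.0 for E16.5 and P5, 3.0.2 for P1), STAR, Seurat and the GRCm38 build; gene positions came from GENCODE vM21. Counts were summed over the cells of a group and divided by their total without mitochondrial, ribosomal and Y-linked genes, giving CPM. Log2 ratios used a pseudocount of 1 CPM and at least 10 UMIs in both groups together, and 2-fold was the limit of size. Counts of 0 were also read as 3 UMIs. Intervals (95%) were exact Poisson for levels, exact conditional for ratios and Clopper-Pearson for shares. No doublet caller was run and no clustering was made; leaving out the deepest 10% of cells was one of the alternatives.

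The 15 higher genes, outside the lists, had at least 10 UMIs in members of both libraries and the largest smaller log2 ratio, and the 10 lower genes had at least 50 CPM in comparison cells and the smallest larger log2 ratio. This rule was meant for all 3 libraries, but only 2 genes reached 10 UMIs in the P5 member too, so E16.5 and P1 were used, a choice made after seeing the data. The members and the gene lists were chosen with earlier results of these data known. Of 200 genes changed 4-fold in simulated counts, 196 at the E16.5 depth and 198 at the P1 depth came out past 2-fold. These genes were drawn from those with at least 10 UMIs expected in members, and no spread between cells was simulated. The result does not cover genes with fewer UMIs or with reads from few cells. Computation used scipy 1.17.1, numpy 2.4.6 and pandas 2.3.3 under Python 3.11.15, with matplotlib 3.10.9 for plots. A few listed genes are not reported here by name.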

Additional observations from a re-analysis of the deposited data

Results flagged for a closer look

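The log2 ratios of 4 listed genes between Meis2-type and comparison cells had opposite signs at E16.5 and P1. Etv1 stood at -6.36 at E16.5, where members held 0 UMIs, and at 2.29 at P1, where 4 members held 10. With 0 set to the level of 3 UMIs, the E16.5 value was -2.95. Foxp1 stood at 3.16 and -1.82, Tac1 at 4.92 and -1.19 and Epha4, an ephrin receptor, at 3.36 and -1.97, each with 1 UMI in P1 members. Tac1 at E16.5 rested on 4 cells. With 1 library a stage, these differences were not tested.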

How the results depend on the processing

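Requiring 3 of the rule genes gave shares of 0.633% at E16.5 and 0% at P5, and turned Sox9 (-2.72), Crabp1 (-2.01) and Sema3c (-2.47); single genes here are given by the log2 ratio nearer 0 of the 2 stages.

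Over 1000 genes and under 5% mitochondrial UMIs left 3 P1 members. The share was 0.446% at P1 and 0% at P5, Sst was -0.10 at E16.5 and -5.24 at P1, and Gad1 was -8.43 at P1. At P1 the dorsal LGE list turned to -4.73 and the TALE list to -4.73. Ptprk (-1.68), Nectin3 (-4.50), Synpr (-5.86), Zic1 (-1.08), Zbtb18 (-3.94), Slc1a3 (-1.08), Sox9 (-1.41), Meis1 (-1.91), Crabp1 (-3.59), Nrp1 (-3.94), Nrp2 (-4.70) and Sema3c (-1.08) turned too.

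The rule on counts thinned to 1000 UMIs gave shares of 0.660% at E16.5 and 0% at P5, Sst at -0.041 and -0.54, Gad2 at -0.40 at E16.5, Cbln2 at -3.64, Zic1 at -0.36 and Sema3c at -2.19. Without the 10% of cells with most UMIs, Sst was -0.70 at E16.5, Cbln2 -3.44 and Zic1 -0.44. The mean of per-cell CPM gave Sst at -0.47 and -1.24.

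A pseudocount of 10 CPM left 421 genes higher and 356 lower at E16.5 and 2060 lower at P1. Chosen after seeing the data, reading 0 as 3 UMIs left 889 and 893 lower. A minimum of 10 UMIs counted or expected in members left 386 higher and 278 lower at E16.5 and 152 and 122 at P1. Leaving out members with Six3, Isl1 or Ebf1 gave a share of 0.709% and Sst at -0.47 at E16.5, and Sox9 at -1.91. The cause of these shifts was not tested.

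Across all settings, 46 Gad1 and Gad2 values stayed within their counting intervals and 2 did not, as did 16 and 8 Sst values, and 209 list medians moved by less than 1.5-fold, 29 by more, and 2 whose size was past 2-fold changed sign. Smaller medians could change sign too, as that of the dorsal LGE list at E16.5 did, from 0.70 to -0.14, with 3 rule genes. With 20 members at P1, genes below 57.2 CPM were not detectable as absent. No paired analysis was possible because each stage was 1 library.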
